A study of Homo sapiens with 32 samples.

Results

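Aminoacyl-tRNA synthetases join each amino acid to its tRNA, and most amino acids are served by one nuclear gene for the cytosol and another for mitochondria. The genes described here are 38 listed synthetases and scaffold proteins: 19 cytosolic enzymes (symbols ending in 1, with FARSA and FARSB), 16 mitochondrial enzymes (symbols ending in 2) and the 3 scaffolds AIMP1, AIMP2 and EEF1E1. The rule that picks them uses symbols and no measured value, but the list was drawn up with earlier results of these data known. The decay rate tables of both cell lines held 35 of them among 10829 genes: all 19 cytosolic enzymes, 13 of 16 mitochondrial enzymes and all 3 scaffolds. PARS2, SARS2 and VARS2 did not have a rate in both tables.

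Cytosolic synthetases charge the tRNAs that read nuclear messages on cytosolic ribosomes, and several of them sit with the scaffolds in a multisynthetase complex. Mitochondrial synthetases are imported into the organelle and serve the few messages of the mitochondrial genome. KARS1 and GARS1 make enzymes for both compartments. Uncharged tRNA activates the kinase GCN2, and the transcription factor ATF4 acting below it is known to raise transcription of many cytosolic synthetase genes.

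The study compared RNA decay in MDA-MB-231, a widely used human line of mesenchymal, basal-like breast cancer, and MDA-LM2, which was derived from it by selection for colonisation of the lung. Both lines received 4-thiouridine (4sU), a uridine analogue that marks newly made RNA, for 2 h in DMEM-based medium with serum, and then fresh medium with excess uridine. Labelled RNA was precipitated and sequenced at 0, 2, 4 and 7 h in 4 replicate series per line, which makes 32 libraries. Each line is 1 cell line, so the selection for metastasis and any other difference between the lines cannot be told apart. Each series yields 1 deposited decay rate per transcript, positive where abundance fell, and a gene's rate here is the median over its transcripts. A rate that is lower in MDA-LM2 is called slower decay there. Neither the log base nor the scaling of the rates is given in the sources, so no half-life was computed.

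Several facts of the whole series touch these genes. The series carry labels of 2 numbers, and series with the same second number (replicates 1 and 3, and replicates 2 and 4) ranked genes more alike (Spearman 0.631 to 0.837 over all genes within a line) than series that share no number (0.262 to 0.617). The limma p of each called gene is therefore given beside the p of a fit in which such series are correlated, named the correlated fit. Whether the series were separate cultures is not stated, and the p-values measure the spread among these series, which may be technical. Rates beyond 1 either side of 0 made up 16.9 to 18.8% of genes per MDA-MB-231 series and 3.07 to 4.93% per MDA-LM2 series. Among the 35 synthetase and scaffold genes, 3 to 5 per MDA-MB-231 series and 1 to 2 per MDA-LM2 series lay beyond 1. The files hold rates and no read counts, so the depth behind each value is unknown. All 5 mesenchymal or basal-like markers looked for (VIM, CD44, AXL, CAV1 and EGFR) had rates in both tables, as did 4 of 8 luminal epithelial markers and 0 of 5 markers of other cells, but a rate carries no level.

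Short sequence elements were counted in the transcripts and promoters of both compartments, as a description with no test. Pumilio proteins bind an 8-base element in 3′ untranslated regions (UTRs) and are known to recruit deadenylases. The element TGTANATA, searched on the transcript strand, lay in the 3′ UTR of 0 of 19 cytosolic enzymes and 4 of 12 mitochondrial enzymes with a matched transcript. It lay in 28.8% of 9607 genes with rates, whose median 3′ UTR of 1144 bases was longer than that of the cytosolic (352 bases) and mitochondrial (684.5 bases) enzymes. The 4 windows are transcript-strand sequence from GENCODE 29 on GRCh38, each wholly inside the 3′ UTR, with the element in capitals. IARS2 lies at chr1:220147807-220147836 on the plus strand, MARS2 at chr2:197708147-197708176 on the plus strand, TARS2 at chr1:150507065-150507094 on the plus strand and WARS2 at chr1:119031536-119031565 on the minus strand. IARS2 and MARS2 are shown because they are the 2 mitochondrial enzymes called between the lines.
IARS2: agaaagaattaTGTATATAtacatgcagaa
MARS2: atttaaaaattTGTAAATAgttcaaaaggg
TARS2: gccttTGTACATAgatgaggcaaaaacctg
WARS2: tgatcaccattTGTACATAcataactaggt

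In promoters, the letters TGATGNAA, the core of the element that ATF4 binds with C/EBP partners, were searched on both strands from 250 bases before to 50 after each RefSeq transcript start (GRCh38.p14). They lay in 7 of 16 cytosolic enzymes with a promoter entry (AARS1, CARS1, GARS1, IARS1, MARS1, NARS1 and TARS1), in 1 of 14 mitochondrial enzymes (YARS2) and in 0 of 3 scaffolds. The share was 2.70% of 8567 genes in both rate tables and 4.46% of all 27305 genes in the promoter table. Shown in capitals on the strand that carries the letters are NARS1 (chr18:57621804-57621833, minus strand) and TARS1 (chr5:33440956-33440985, minus strand), the matches among enzymes called slower, and YARS2 (chr12:32756076-32756105, minus strand), the mitochondrial match.
NARS1: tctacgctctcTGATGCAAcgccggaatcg
TARS1: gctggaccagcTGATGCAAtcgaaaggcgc
YARS2: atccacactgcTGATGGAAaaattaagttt
Among cytosolic enzymes with the letters, 2 of 7 were called slower in MDA-LM2, with a median difference of -0.081. Among those without them it was 3 of 9, with a median difference of -0.091. These calls are at a limma adjusted p of 0.05, at which 6.71% of all genes were called slower. The median difference over all genes was -0.054. In the correlated fit NARS1 was the only cytosolic enzyme called, against 3.18% of all genes called slower.

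Cytosolic synthetase transcripts had low decay rates in MDA-LM2, below those of the mitochondrial set and of all genes. The median rate of the 19 cytosolic enzymes was 0.0839, 0.0954, 0.0815 and 0.0779 in MDA-LM2 replicates 1 to 4 and 0.160, 0.118, 0.183 and 0.132 in MDA-MB-231 replicates 1 to 4. No MDA-LM2 series reached the lowest MDA-MB-231 series. The mean was 0.0847 ± 0.0076 (SD, n = 4) in MDA-LM2 and 0.148 ± 0.029 (SD, n = 4) in MDA-MB-231.

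The mitochondrial medians of the lines overlapped. They were 0.216, 0.147, 0.177 and 0.132 in the MDA-LM2 series and 0.173, 0.148, 0.195 and 0.132 in the MDA-MB-231 series. The means were 0.168 ± 0.037 and 0.162 ± 0.028 (SD, n = 4 each). Over all genes the median was 0.165 ± 0.011 in MDA-LM2 against 0.189 ± 0.015 in MDA-MB-231. On ranks, the median cytosolic enzyme stood at percentile 26.2 ± 1.4 of all genes in MDA-LM2 against 39.1 ± 5.0 in MDA-MB-231, and the median mitochondrial enzyme at 50.8 ± 12.7 and 42.8 ± 5.5.

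**Figure D1:**
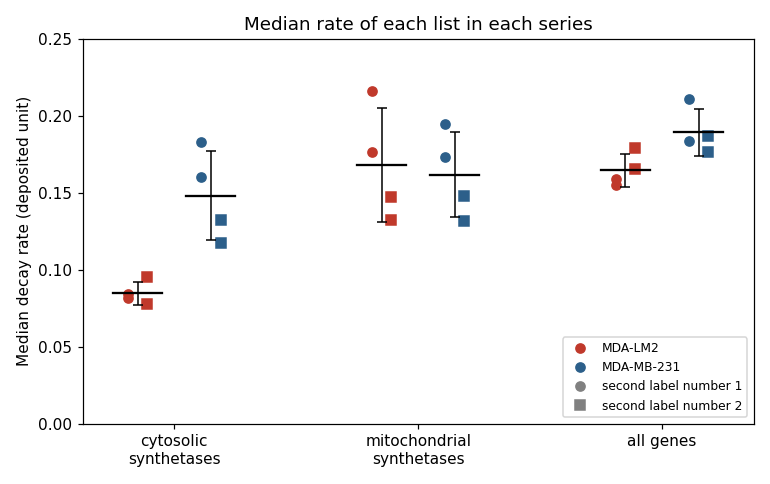
Median decay rate (deposited unit) of the cytosolic synthetases, the mitochondrial synthetases and all genes in each of 4 series per line. Points are series (circles and squares mark the second label number), long bars are means and whiskers are 1 SD. The cytosolic medians lie between 0.0779 and 0.0954 in MDA-LM2 and between 0.118 and 0.183 in MDA-MB-231, while the mitochondrial medians of the lines overlap.

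The gap between the compartments, the mitochondrial minus the cytosolic median within a series, was 0.133, 0.0520, 0.0952 and 0.0546 in MDA-LM2. In MDA-MB-231 it was 0.0130, 0.0303, 0.0119 and -0.000295. Every MDA-LM2 series thus had a wider gap than every MDA-MB-231 series, with means of 0.0836 ± 0.0382 and 0.0137 ± 0.0126 (SD, n = 4 each). The lists were described and not tested. In MDA-MB-231 the gap was 0.0364 over genes with 1 transcript and 0.0391 over protein-coding accessions, settings that leave out genes or accessions. In MDA-LM2 it was 0.0993 and 0.0982 in the same settings.

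**Figure D2:**
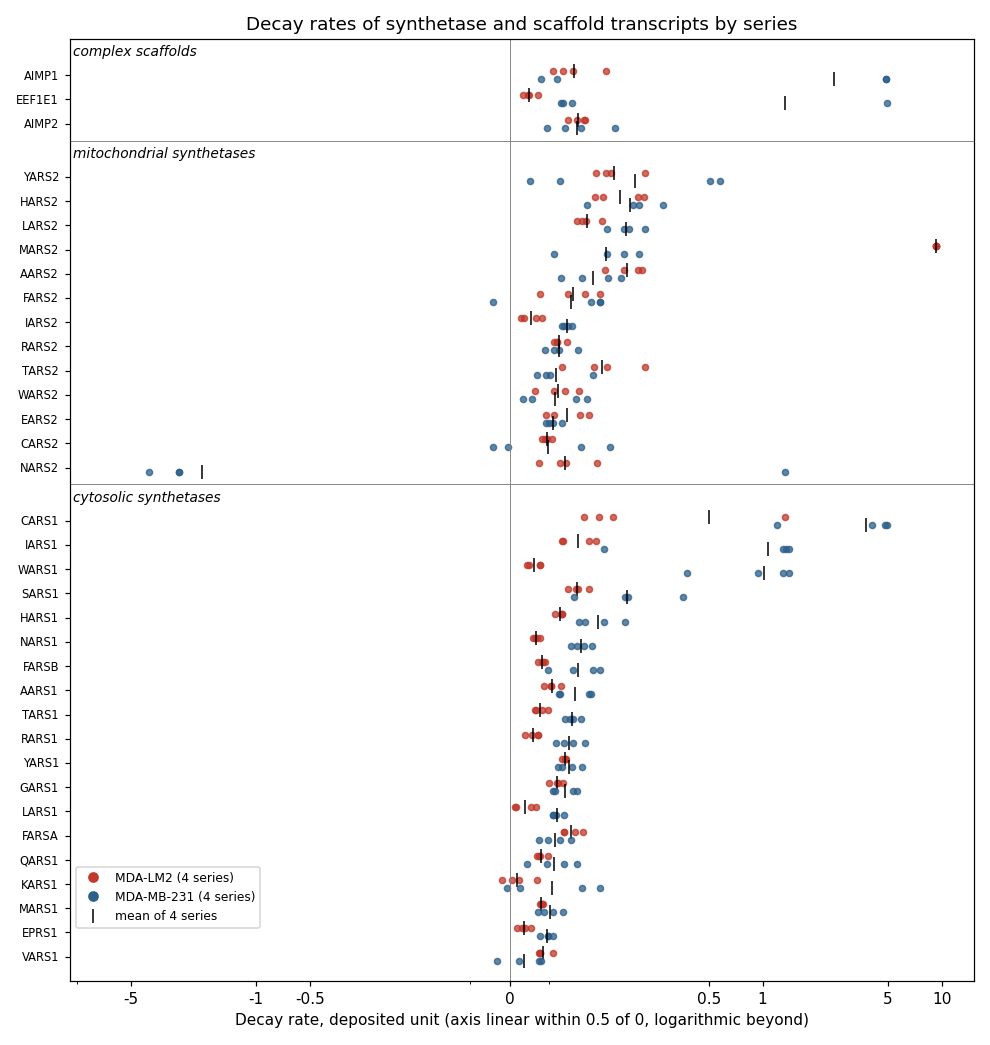
Decay rate of each of the 35 measured genes in 4 MDA-LM2 series (red) and 4 MDA-MB-231 series (blue), with black ticks at the means. The axis is linear within 0.5 of 0 and logarithmic beyond. MARS2 stands near 9.28 in MDA-LM2, and CARS1, IARS1, WARS1, NARS2, AIMP1 and EEF1E1 have MDA-MB-231 rates beyond 1.

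Of the 19 cytosolic enzymes, 17 decayed at a lower mean rate in MDA-LM2, while FARSA and VARS1 had a higher one. Over all genes, 67% had a lower mean there. At a limma adjusted p of 0.05, 6 of 19 cytosolic enzymes were called slower (EPRS1, LARS1, NARS1, RARS1, TARS1 and WARS1) and 0 faster, against 6.71% of all genes called slower and 2% faster. All 4 MDA-LM2 series lay below all 4 MDA-MB-231 series for 9 of 19, against 17.6% of all genes. In the correlated fit NARS1 alone of the 6 stayed called, and 3.18% of all genes were called slower and 0.323% faster. With each series centred on its own median the count was 5 of 19, against 5.17% of all genes slower and 4.01% faster. With an unequal-variance test for each gene it was 3 of 19, against 4.75% slower and 1.09% faster. The count of 6 ranged from 1 to 6 when any one series was left out: it was 1 without MDA-LM2 replicate 1, 3 or 4, 3 without MDA-LM2 replicate 2, and 2 without MDA-MB-231 replicate 1 or 4. The shares of all genes called with a series left out are not given here. A loss of calls in these enzymes thus cannot be told apart from a loss over all genes. The median difference was -0.081 over the 19 enzymes and -0.054 over all genes. After centring, these were -0.056 and -0.029, and 14 of 19 were lower, against 59.1% of all genes.

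Restricting the view to genes with all 8 rates within 1 of 0 left 16 cytosolic enzymes, 11 mitochondrial enzymes and 7224 genes. The cytosolic mean was lower in MDA-LM2 for 14 of 16, with a median difference of -0.069, and 7 of 16 did not overlap. For the mitochondrial enzymes it was lower for 6 of 11, with a median difference of -0.0013, and 2 of 11 were lower without overlap. Over the 7224 genes 57.9% were lower, with a median difference of -0.017, and 15.2% were lower without overlap. Fitted alone, these genes gave 4 slower calls among 16 cytosolic enzymes and 1 among 11 mitochondrial enzymes, against 7.36% slower and 3.67% faster over all. With correlated series this fit gave 0 slower calls for either compartment and 1 (0.0138%) among all 7224.

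Series with the same second number can also be compared apart from the rest. The cytosolic median difference was -0.107 among replicates 1 and 3 and -0.042 among replicates 2 and 4. In both sets 13 of 19 enzymes were lower in MDA-LM2 and in both 2 were higher, against 40.9% and 18.2% of all genes. Of the 13 mitochondrial enzymes, 3 were lower in both sets, 4 higher in both and 6 opposite.

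NARS1, the cytosolic asparaginyl-tRNA synthetase, was the cytosolic enzyme with the smallest adjusted p. Its rate was 0.0639, 0.0687, 0.0591 and 0.0759 in MDA-LM2 and 0.186, 0.170, 0.207 and 0.153 in MDA-MB-231. The groups were far apart, and the highest MDA-LM2 series lay below the lowest MDA-MB-231 series. The difference was -0.112 (95% interval -0.150 to -0.074, limma adjusted p = 0.00694, and adjusted p = 0.0282 in the correlated fit). The call held without any one of the 8 series. It was lost in 3 of 21 alternatives, among them genes within 1 of 0 fitted alone with correlated series (adjusted p = 0.0932) and centred series so fitted (adjusted p = 0.0597).

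TARS1, the threonyl enzyme, showed the same separation at a smaller size. Its rates were 0.0644, 0.0954, 0.0805 and 0.0661 in MDA-LM2 and 0.151, 0.140, 0.180 and 0.160 in MDA-MB-231. The difference was -0.081 (limma adjusted p = 0.0221, and adjusted p = 0.120 in the correlated fit). The call was lost without MDA-LM2 replicate 1, 3 or 4 (adjusted p = 0.0852, 0.0737 and 0.0798).

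RARS1, LARS1 and EPRS1 are the 3 called enzymes of the multisynthetase complex, and EPRS1 carries both the glutamyl and the prolyl activity in 1 chain. RARS1 had 0.0386, 0.0706, 0.0554 and 0.0708 in MDA-LM2 and 0.159, 0.118, 0.190 and 0.136 in MDA-MB-231. LARS1, which also takes part in leucine sensing, had 0.0146, 0.0671, 0.0173 and 0.0548 in MDA-LM2 and 0.108, 0.110, 0.138 and 0.116 in MDA-MB-231. EPRS1 had 0.0314, 0.0538, 0.0183 and 0.0396 in MDA-LM2 and 0.0767, 0.0973, 0.109 and 0.0961 in MDA-MB-231. None of the 3 overlapped between the lines, and the MDA-LM2 rates of LARS1 and EPRS1 were lower in replicates 1 and 3 than in replicates 2 and 4. The RARS1 difference was -0.092 (limma adjusted p = 0.0339, correlated fit adjusted p = 0.110). That of LARS1 was -0.080 (limma adjusted p = 0.0362, correlated fit adjusted p = 0.117). That of EPRS1 was -0.059 (limma adjusted p = 0.0460, correlated fit adjusted p = 0.190). The EPRS1 call was lost without any one of the 8 series (adjusted p = 0.0503 to 0.141). The RARS1 call was lost without any MDA-LM2 replicate or without MDA-MB-231 replicate 1 or 4 (highest adjusted p = 0.107). The LARS1 call was lost without MDA-LM2 replicate 1, 3 or 4 or MDA-MB-231 replicate 1, 3 or 4 (highest adjusted p = 0.114).

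WARS1, the tryptophanyl enzyme and a known interferon-induced gene, had the widest difference of the 6. Its rate was 0.0770, 0.0767, 0.0493 and 0.0448 in MDA-LM2 and 1.41, 1.30, 0.446 and 0.941 in MDA-MB-231. The MDA-LM2 series were tight and the MDA-MB-231 series spread widely above them. The difference was -0.960 (limma adjusted p = 0.0322, and adjusted p = 0.212 in the correlated fit). The call was kept without MDA-MB-231 replicate 3 and lost without any other series (highest adjusted p = 0.0940). WARS1 is the median of 2 transcripts of the same gene. The first had a mean of 0.0322 ± 0.0587 in MDA-LM2 against 1.88 ± 1.02 in MDA-MB-231, and the second 0.0917 ± 0.0505 and 0.167 ± 0.237 (SD, n = 4 each), so the size of the difference came from the first.

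Among the 13 cytosolic enzymes that were not called, 3 did not overlap between the lines: HARS1, FARSB and IARS1. HARS1, the histidyl enzyme, had 0.133, 0.115, 0.130 and 0.133 in MDA-LM2 and 0.238, 0.175, 0.290 and 0.188 in MDA-MB-231 (difference -0.095, limma adjusted p = 0.0839). FARSB, the beta subunit of the phenylalanyl enzyme, had 0.0717, 0.0884, 0.0823 and 0.0845 in MDA-LM2 and 0.208, 0.0957, 0.227 and 0.160 in MDA-MB-231 (difference -0.091, limma adjusted p = 0.107). Both passed without MDA-MB-231 replicate 2, with adjusted p = 0.0475 for HARS1 and 0.0164 for FARSB. FARSA, the alpha subunit of the same enzyme, lay on the other side, with a mean of 0.155 ± 0.024 in MDA-LM2 against 0.113 ± 0.035 in MDA-MB-231 (limma adjusted p = 0.276).

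IARS1, the isoleucyl enzyme of the complex, combined 2 transcripts that differed in scale. The gene had 0.134, 0.218, 0.132 and 0.200 in MDA-LM2 and 1.40, 1.29, 0.237 and 1.35 in MDA-MB-231. Replicate 3 stood apart from the other MDA-MB-231 series, and without it the gene was called (adjusted p = 0.000341, against 0.0831 with it). The first transcript had a mean of 0.0503 ± 0.0187 in MDA-LM2 against 0.119 ± 0.022 in MDA-MB-231, and the second 0.291 ± 0.075 and 2.02 ± 1.13. Both transcripts were lower in MDA-LM2, and the second alone left the range within 1 of 0.

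CARS1, the cysteinyl enzyme, had the highest mean rate of the cytosolic set in both lines. It had 0.261, 0.225, 0.187 and 1.33 in MDA-LM2 and 4.93, 4.08, 1.20 and 4.84 in MDA-MB-231. The lines overlapped through replicate 4 of MDA-LM2 and replicate 3 of MDA-MB-231, and the difference of -3.26 was not called (limma adjusted p = 0.0820). Without MDA-MB-231 replicate 3 it was called (adjusted p = 0.0104). CARS1 joins a coding and a non-coding accession whose MDA-MB-231 rates near 9 to 10 fell in different series.

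SARS1, the seryl enzyme, turned on the accession used. Its coding transcript had a mean of 0.109 ± 0.015 in MDA-LM2 against 0.107 ± 0.018 in MDA-MB-231. Its non-coding accession had 0.232 ± 0.040 and 0.485 ± 0.236. The gene's difference of -0.125 (limma adjusted p = 0.203) became 0.0022 with protein-coding accessions only.

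The dual-compartment enzymes were not called. GARS1, the glycyl enzyme, had 0.122, 0.135, 0.120 and 0.0998 in MDA-LM2 and 0.160, 0.109, 0.169 and 0.114 in MDA-MB-231. The lines overlapped, and the difference of -0.019 (limma adjusted p = 0.529) turned to 0.0060 after each series was centred. KARS1, the lysyl enzyme, had 0.00723, 0.0679, -0.0186 and 0.0232 in MDA-LM2 and 0.226, -0.00651, 0.183 and 0.0252 in MDA-MB-231. Its MDA-MB-231 rates split by second label number, with replicates 1 and 3 high and replicates 2 and 4 near 0 (limma adjusted p = 0.340). Its first transcript spread widely (0.0117 ± 0.0680 and 0.131 ± 0.241), while the second was tight (0.0281 ± 0.0148 and 0.0826 ± 0.0146, SD, n = 4 each). The second transcript did not overlap between the lines, at 0.00659 to 0.0382 in MDA-LM2 and 0.0627 to 0.0978 in MDA-MB-231. KARS1 had the lowest cytosolic mean in MDA-LM2, and VARS1, the valyl enzyme, the lowest in MDA-MB-231 (0.0364 ± 0.0521).

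The 5 remaining cytosolic enzymes overlapped between the lines. AARS1, the alanyl enzyme, differed by -0.058, close to the size of EPRS1 but with a wider spread (95% interval -0.117 to 0.0015, limma adjusted p = 0.200), and QARS1, the glutaminyl enzyme, by -0.032 (limma adjusted p = 0.475). MARS1, the methionyl enzyme of the cytosol, and YARS1, the tyrosyl enzyme, differed by -0.021 and -0.010, and after each series was centred these turned to 0.0037 and 0.014. VARS1 differed by 0.047 in the other direction (limma adjusted p = 0.291). The 95% interval was -0.061 to 0.019 for MARS1 and -0.052 to 0.031 for YARS1.

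**Figure D3:**
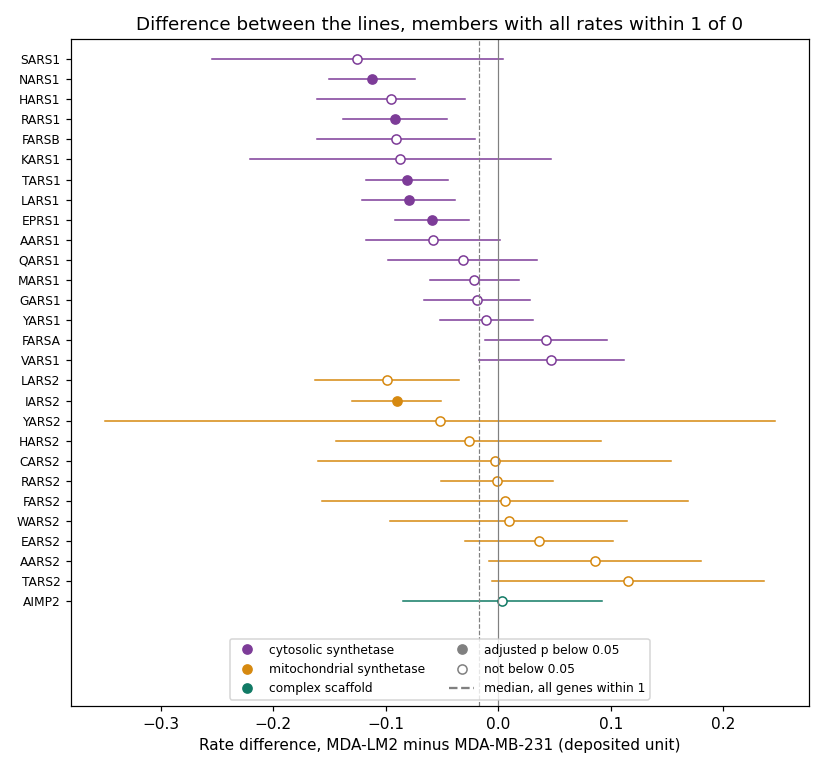
Rate difference between the lines (MDA-LM2 minus MDA-MB-231, deposited unit) with limma's 95% interval for the 28 genes whose 8 rates all lie within 1 of 0. Filled points passed an adjusted p of 0.05, and the dashed line marks the median of all 7224 genes in that range, -0.017. Of the 16 cytosolic enzymes in range 14 lie left of 0, while the 11 mitochondrial enzymes lie on both sides.

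Cytosolic enzymes inside and outside the multisynthetase complex had like median differences, while rates were lower inside it in both lines. All 7 cytosolic enzymes of the complex in the list had lower means in MDA-LM2 and 3 were called slower, with a median difference of -0.080. Of the 12 outside it 10 were lower and 3 were called slower, with a median difference of -0.086. Among all genes 67% were lower and 6.71% were called slower. In the correlated fit 0 of the 7 and 1 of the 12 were called slower, against 3.18% of all genes. The median rate inside the complex was 0.0583 ± 0.0148 in MDA-LM2 against 0.128 ± 0.032 in MDA-MB-231. Outside it was 0.111 ± 0.013 and 0.172 ± 0.034 (SD, n = 4 each).

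The scaffolds hold the complex together and were not called. EEF1E1 had 0.0452, 0.0487, 0.0337 and 0.0724 in MDA-LM2 and 0.134, 0.129, 0.156 and 4.94 in MDA-MB-231. The lines did not overlap, but the fit was spread by the rate of 4.94 in replicate 4 (limma adjusted p = 0.465), and without that series the difference was -0.090 (adjusted p = 0.0242). AIMP1 had 0.109, 0.159, 0.241 and 0.134 in MDA-LM2 and 4.87, 0.120, 4.87 and 0.0792 in MDA-MB-231. Its high MDA-MB-231 rates were those of replicates 1 and 3, which share the second label number (limma adjusted p = 0.278). EEF1E1 and AIMP1 each join 2 transcripts, and their rates near 5 are midpoints. In MDA-MB-231 the EEF1E1 transcripts had 0.0619 and 9.82 in replicate 4. Those of AIMP1 had 0.126 and 9.61 in replicate 1 and 0.182 and 9.56 in replicate 3. The first EEF1E1 transcript had a mean of 0.0146 ± 0.0126 in MDA-LM2 against 0.105 ± 0.046 in MDA-MB-231. For the first AIMP1 transcript these were 0.0780 ± 0.0401 and 0.178 ± 0.073 (SD, n = 4 each). AIMP2 had a mean of 0.173 ± 0.020 in MDA-LM2 against 0.169 ± 0.073 in MDA-MB-231 (limma adjusted p = 0.959).

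Among the 13 mitochondrial enzymes, 6 had a lower mean in MDA-LM2, 1 was called slower (IARS2) and 1 faster (MARS2), with a median difference of 0.0063. All 4 MDA-LM2 series were lower for 2 of 13 (IARS2 and LARS2) and higher for 1 (MARS2), against 17.6% and 5.61% of all genes. Among all genes 6.71% were called slower and 2% faster. The slower count was 0 without MDA-LM2 replicate 1, 3 or 4 and 2 without MDA-MB-231 replicate 2, and the faster count was 2 without MDA-MB-231 replicate 2. These counts with a series left out have no share over all genes beside them.

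IARS2, the mitochondrial isoleucyl enzyme, was the mitochondrial enzyme called slower. It had 0.0356, 0.0815, 0.0299 and 0.0659 in MDA-LM2 and 0.137, 0.148, 0.157 and 0.132 in MDA-MB-231. The lines did not overlap, and its MDA-LM2 rates were lower in replicates 1 and 3 than in replicates 2 and 4. The difference was -0.090 (limma adjusted p = 0.0199, and adjusted p = 0.0727 in the correlated fit). The call was lost without MDA-LM2 replicate 1, 3 or 4 (adjusted p = 0.0743, 0.0701 and 0.0540). IARS2 also had the lowest mitochondrial mean in MDA-LM2.

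MARS2, the mitochondrial methionyl enzyme, was far outside the range of the others. It had 9.26, 9.29, 9.25 and 9.30 in MDA-LM2 and 0.288, 0.112, 0.245 and 0.326 in MDA-MB-231. The 4 MDA-LM2 series were nearly equal and lay far above all MDA-MB-231 series. The difference was 9.03 (95% interval 7.73 to 10.3, limma adjusted p = 5.91e-05, and adjusted p = 0.000325 in the correlated fit), and the call held without any one series. Rates above 8 in all 4 series occurred in 11 of 10829 genes in MDA-LM2 and in 205 in MDA-MB-231. What puts a gene at such a rate was not tested, and the deposited rates give no abundance against which to read it. How a time point without reads enters a rate is not given in the sources, so rates near 5 or 9 here, those of CARS1, AIMP1 and EEF1E1 included, cannot be read as a speed of decay.

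LARS2, the mitochondrial leucyl enzyme, had 0.183, 0.232, 0.169 and 0.192 in MDA-LM2 and 0.299, 0.244, 0.288 and 0.340 in MDA-MB-231. The lines did not overlap, though MDA-MB-231 replicate 2 came close to the highest MDA-LM2 series. The difference was -0.099 (limma adjusted p = 0.0717), and the gene was called without that replicate (adjusted p = 0.0354).

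TARS2 and AARS2, the mitochondrial threonyl and alanyl enzymes, had higher means in MDA-LM2, where their cytosolic counterparts had lower ones. TARS2 had 0.245, 0.212, 0.341 and 0.132 in MDA-LM2 and 0.0911, 0.101, 0.0682 and 0.210 in MDA-MB-231. AARS2 had 0.287, 0.323, 0.240 and 0.333 in MDA-LM2 and 0.280, 0.183, 0.247 and 0.129 in MDA-MB-231. The lines overlapped for both, TARS2 through replicate 4 of each line. The differences of 0.115 for TARS2 (limma adjusted p = 0.208) and 0.086 for AARS2 (limma adjusted p = 0.226) were not called.

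NARS2, the mitochondrial asparaginyl enzyme, had 0.220, 0.0732, 0.142 and 0.126 in MDA-LM2 and -2.70, 1.34, -3.98 and -2.71 in MDA-MB-231. By the sign of the deposited rates a negative value stands for a rise in abundance. How a time point without reads enters a rate is not given, so whether abundance rose cannot be told. The negative rates came from 1 of its 2 transcripts (-4.11 ± 4.68), while the other had a mean of 0.0835 ± 0.0620 in MDA-MB-231. The difference of 2.15 was not called (limma adjusted p = 0.253) but was without MDA-MB-231 replicate 2 (adjusted p = 0.00178).

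The other 7 mitochondrial enzymes showed no call and overlapping lines. HARS2, the histidyl enzyme, was among the fastest (0.277 ± 0.062 in MDA-LM2 against 0.303 ± 0.080 in MDA-MB-231), and CARS2, the cysteinyl enzyme, among the slowest (0.0930 ± 0.0111 and 0.0962 ± 0.142). CARS2 rates in MDA-MB-231 were -0.0416, 0.179, -0.00431 and 0.252, split by second label number. YARS2 had 0.575, 0.0505, 0.509 and 0.126 in MDA-MB-231, with the same split in the other direction. EARS2 had 0.145 ± 0.052 in MDA-LM2 against 0.109 ± 0.018 in MDA-MB-231 through a non-coding accession only. FARS2, RARS2 and WARS2 differed by 0.0063, -0.0013 and 0.0094.

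The counterpart enzymes for 1 amino acid give 14 measured pairs of 17 listed, with FARS2 set against both cytosolic subunits. The mitochondrial rate exceeded the cytosolic rate in all 4 series for 10 pairs in MDA-LM2 and for 3 in MDA-MB-231. It did so in all 8 series for alanine, leucine and methionine, and in none of the 8 for cysteine and isoleucine. The other 9 pairs had both signs. For 6 pairs (alanine, glutamate, methionine, arginine, threonine and tryptophan) the gap was larger in every MDA-LM2 series than in any MDA-MB-231 series, for 0 it was smaller, and for 8 it overlapped. All 6 rest on the same 8 series, and EPRS1, RARS1, TARS1 and WARS1 are among the cytosolic enzymes already named. No count over other pairs of genes was made to set beside these. For single genes, all 4 MDA-LM2 series lay lower for 17.6% and higher for 5.61% of all genes. The methionine gap holds the MARS2 mean of 9.28 in MDA-LM2, which cannot be read as a speed of decay. The tryptophan gap holds WARS1, where 1 of 2 transcripts gave the size of the difference.

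Leucine gave a gap above 0 in every series. LARS2 exceeded LARS1 by 0.168, 0.165, 0.152 and 0.137 in MDA-LM2 and by 0.191, 0.134, 0.150 and 0.224 in MDA-MB-231. The lines overlapped, since both enzymes were lower in MDA-LM2. For threonine TARS2 exceeded TARS1 by 0.181, 0.117, 0.260 and 0.0663 in MDA-LM2, and the gap in MDA-MB-231 was -0.0603, -0.0393, -0.112 and 0.0501. For alanine AARS2 exceeded AARS1 by 0.159, 0.218, 0.136 and 0.245 in MDA-LM2 and by 0.0800, 0.0583, 0.0413 and 0.00308 in MDA-MB-231. In both pairs every MDA-LM2 series lay above every MDA-MB-231 series, although neither mitochondrial gene was called alone.

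**Figure D4:**
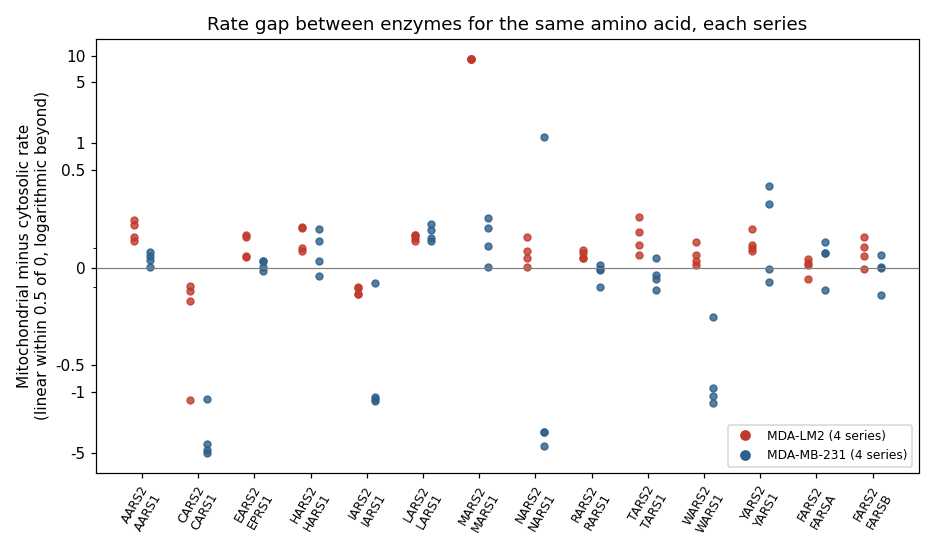
Mitochondrial minus cytosolic decay rate for the 14 measured pairs, each point 1 series (red MDA-LM2, blue MDA-MB-231), on an axis linear within 0.5 of 0 and logarithmic beyond. In MDA-LM2 10 pairs lie above 0 in all 4 series, against 3 in MDA-MB-231. The pairs of CARS, IARS, NARS and WARS have MDA-MB-231 points near or below -1.

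Synthetases fall into class I and class II by the fold of their catalytic domain. Of 17 measured class I enzymes 4 were called slower and 1 faster, and of 14 class II enzymes 2 slower and 0 faster. EPRS1, called slower and carrying both the glutamyl and the prolyl activity, was in neither class list. The shares over all genes were 6.71% and 2%. In the correlated fit 0 class I enzymes and 1 class II enzyme were slower, and 1 class I enzyme and 0 class II enzymes faster. The shares over all genes in that fit were 3.18% slower and 0.323% faster. Each class held cytosolic and mitochondrial enzymes.

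Counts for other genes of tRNA biology are read against the shares over all genes, 6.71% slower and 2% faster. Of 26 tRNA maturation and export genes 2 were slower and 0 faster. PRORP, the nuclease subunit of mitochondrial RNase P, was one of them (0.115 ± 0.067 in MDA-LM2 against 1.74 ± 0.25 in MDA-MB-231, limma adjusted p = 0.000402, correlated fit adjusted p = 0.00301). RTRAF, a subunit of the tRNA ligase complex, was the other (0.0337 ± 0.0219 and 0.120 ± 0.015, limma adjusted p = 0.0215, correlated fit adjusted p = 0.0992).

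Of 57 tRNA modification genes 4 were slower and 1 faster. MTO1, which modifies mitochondrial tRNAs, had 0.111 ± 0.036 in MDA-LM2 against 4.85 ± 0.07 in MDA-MB-231 (limma adjusted p = 0.00231, correlated fit adjusted p = 0.0104). Its MDA-MB-231 rates are of the kind near 5 that cannot be read as a speed of decay. QTRT1, the catalytic subunit of the queuine transferase, was the faster one (0.172 ± 0.100 in MDA-LM2 against -0.0686 ± 0.0528 in MDA-MB-231, limma adjusted p = 0.0375, correlated fit adjusted p = 0.110). Of 19 mitochondrial translation factors 1 was slower (MRRF, a ribosome recycling factor, limma adjusted p = 0.0458) and 1 faster (MTIF2, an initiation factor, limma adjusted p = 0.0427), and neither passed in the correlated fit (adjusted p = 0.149 and 0.196).

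ATF4 and its upstream sensors were read from lists outside the synthetases. Of 20 other ATF4 amino acid targets 1 (5%) was slower, against 6.71% of all genes: CEBPG, a partner of ATF4, at 0.217 ± 0.041 in MDA-LM2 against 1.53 ± 0.05 in MDA-MB-231 (limma adjusted p = 5.89e-05, correlated fit adjusted p = 0.000325). Of 15 genes of GCN2 and synthetase-linked sensing 0 were slower and 1 (6.67%) faster, against 2% of all genes: PPP1R15B, a regulatory subunit that directs eIF2 alpha dephosphorylation, at 0.335 ± 0.042 and 0.198 ± 0.027 (limma adjusted p = 0.0294, correlated fit adjusted p = 0.0785).

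Transcript structure was read from the longest matched GENCODE transcript. The median coding length was 2172 bases in 19 cytosolic enzymes, 1716 in 12 mitochondrial enzymes and 1386 in 9607 genes. The AU-rich pentamer ATTTA lay in the 3′ UTR of 7 of 19 cytosolic enzymes, 6 of 12 mitochondrial enzymes and 72.2% of all genes, whose 3′ UTRs are longer. Across the 27 synthetase and scaffold genes in range with a matched transcript, rate and coding length had a Spearman correlation of -0.486 in MDA-LM2 against -0.379 in MDA-MB-231. Longer coding sequences thus went with lower rates among these genes, while over 6448 genes the correlations were 0.229 and 0.0991. The genes of each correlation share the same 8 series, and cytosolic enzymes have the longer median coding length. In range, the median rate of cytosolic and mitochondrial enzymes was 0.0809 and 0.161 in MDA-LM2, and 0.1432 and 0.1435 in MDA-MB-231. The GC content of the wobble positions of codons gave 0.491 in MDA-LM2 against -0.042 in MDA-MB-231 across the 27 genes, and 0.111 and 0.0254 over the 6448 genes. The length of the 3′ UTR gave 0.117 in MDA-LM2 against 0.465 in MDA-MB-231 across the 27 genes, and 0.171 and 0.121 over the 6448. Differences between these correlations were not tested.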

How the data were processed

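RNA was labelled, precipitated and sequenced in 32 libraries (16 per line), and the authors deposited 1 decay rate per transcript and series, a score with no fixed range and, per the file headers, no stated log base. A score of the difference between lines, deposited by the authors for each transcript, made no call here. TopHat, Cufflinks and hg18 are named in the submitters' processing notes without versions or roles. Read counts are not used here, so depth and its precision are unknown, and no interval that needs depth is given.

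Of the transcripts, 12966 were in both tables. Symbols came from RefSeq (GRCh38.p14, 12644 accessions) and GENCODE (118); the other 204 each counted as a gene. Taking the median of a gene's transcripts left 10829 genes, and 9137 of these had 1 transcript. The 4 against 4 rates of all genes were compared with limma 3.58.1 in R 4.3.3 (two-sided, with a trend of the variance on the mean and no replicate block, at a Benjamini-Hochberg adjusted p of 0.05). limma was tested on simulated data with independent series, which does not cover series that are correlated. The correlated fit gave series that share the second label number a correlation, estimated at 0.457. Alternatives were a replicate block, centring, restriction to rates within 1 of 0, no trend, a robust fit, an unequal-variance test, other ways to merge transcripts and leaving out each series.

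The genes and lists were chosen with earlier results of these data known. Described individually were the called genes, the 3 slowest, 3 fastest and 3 widest differences per class, scaffolds, dual enzymes and pairs of 1 sign in all 8 series. Others were added after their values were seen. Coordinates are of GRCh38, not of hg18, and no rate was placed by coordinate. Python 3.11.15, numpy 2.4.6, scipy 1.17.1, pandas 2.3.3 and matplotlib 3.10.9 were used.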

Additional observations from a re-analysis of the deposited data

Results flagged for a closer look

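Of 70 groups of 4 series (35 genes in each line), 6 held a series whose gap to its nearest neighbour exceeded Dixon's critical value for 4 values, and chance alone gives about 1 in 20. In MDA-LM2, CARS1 had 1.33 in replicate 4 against 0.187 to 0.261 in the other series. HARS1 had 0.115 in replicate 2 of MDA-LM2 against 0.130 to 0.133. VARS1 had 0.109 in replicate 2 of MDA-LM2 against 0.0731 to 0.0759. In MDA-MB-231, IARS1 had 0.237 in replicate 3 against 1.29 to 1.40. FARS2 had -0.0426 in replicate 2 of MDA-MB-231 against 0.204 to 0.228. EEF1E1 had 4.94 in replicate 4 of MDA-MB-231 against 0.129 to 0.156.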

How the results depend on the processing

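The cytosolic count of 6 slower calls became 0 with the replicate block (NARS1 adjusted p = 0.101), 1 with correlated series, 3 without the variance trend, 3 with the unequal-variance test, 2 with a robust fit without trend, and 0 with correlated series on centred rates or on genes within 1 of 0. It was 1 to 6 leaving out 1 series. The mitochondrial slower count of 1 became 0 with the replicate block and in each correlated fit, and 0 to 2 leaving out 1 series. The faster count of 1 became 0 among genes within 1 of 0, which leave MARS2 out by construction, and 1 to 2 leaving out 1 series. Over all genes the replicate block gave 250 slower and 27 faster calls against 727 and 217. Calls over all genes are not given for fits without trend, centred rates with correlated series, or 1 series left out. Whether the counts of these enzymes moved with those of all genes in such settings cannot be told. The shared numbers do not pair the lines: deviations of same-numbered series correlated at -0.0373 to -0.00799 over genes within 1 of 0. The MDA-MB-231 gap of 0.0137 was 0.0364 over single-transcript genes and 0.0391 over coding accessions. The MDA-LM2 gap of 0.0836 was 0.0993 and 0.0982 there. Differences that changed sign were all of uncalled genes. Centring, with or without correlated series, gave 0.0060 for GARS1, 0.0037 for MARS1, 0.014 for YARS1, 0.021 for CARS2 and 0.023 for RARS2, and coding accessions gave 0.0022 for SARS1. Leaving out 1 series gave -0.019 to 0.00082 for YARS1, -0.049 to 0.049 for CARS2, -0.059 to 0.034 for FARS2, -0.063 to 0.00093 for HARS2, -0.013 to 0.015 for RARS2, -0.017 to 0.037 for WARS2, -0.140 to 0.035 for YARS2 and -0.022 to 0.036 for AIMP2. The cause of these changes was not tested. Settings marked as correlated on restricted or centred rates, the robust fit without trend and coding accessions only were chosen after seeing the data.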

Other observations

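Values outside the comparison came from transcripts with rates in 1 table. PARS2, the mitochondrial prolyl enzyme, had 9.11, 9.42, 0.327 and 9.24 in the 4 MDA-MB-231 series, so 3 of its series lay near the rates of MARS2 in MDA-LM2 and carry the same limit. VARS2, the mitochondrial valyl enzyme, had 0.0918, -1.19, 0.426 and 0.0414 in MDA-MB-231. A further pair of WARS1 transcripts was in the MDA-LM2 table only, with means of 0.0473 ± 0.0795 and 0.119 ± 0.107 (SD, n = 4 each). The authors' deposited table, whose score is above 0 for a transcript with a lower mean rate in the derivative line, scores MARS2 at -1, NARS1 at 0.999 and TARS1 at 1.00, and SARS1 at -0.144 for its coding transcript and 0.880 for its non-coding accession. For all 12966 transcripts in both tables the size of the score matched 1 minus an unadjusted p, within 0.001. That p is of an unequal-variance test on these same rates, so the score is not separate evidence.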
